A study of Mus musculus with 9 samples.

Results

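The 41 genes described here encode the route that takes up glucose, splits it to pyruvate, turns pyruvate into lactate or carries it into mitochondria, and oxidises it in the tricarboxylic acid (TCA) cycle. They were chosen by symbol from pathway membership, and all 41 were found among the 49671 Ensembl genes of the count files. Glucose uptake and glycolysis have 17 members, lactate formation and lactate transport 4, pyruvate import with the pyruvate dehydrogenase complex and its kinases 9, and the TCA cycle 11. All 41 passed the filter on low counts. RNA-seq was run on dermal cells of wild-type female C57BL/6 mice, sorted as positive for KIT, a receptor of the melanocyte lineage, and negative for CD45, a marker of immune cells. The 3 groups were melanoblasts, the pigment cell precursors of newborn skin, at postnatal day 0.5 (3 libraries), adult melanocyte stem cells (McSC), quiescent, at 8 to 10 weeks (4 libraries) and aged quiescent McSC at 24 months (2 libraries). Adult and aged skin was in telogen, when hair follicles rest. Pups and adult mice were C57BL/6J born at the facility, and the aged mice were C57BL/6 received from the NIA aged rodent colony at 21 months, so age and colony cannot be told apart. Each library pooled cells of several animals, and p-values measure the spread between pools.

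Glycolysis breaks glucose down to pyruvate in the cytosol and yields ATP and NADH. Lactate dehydrogenase can reduce that pyruvate to lactate, whereas the mitochondrial pyruvate carrier and the pyruvate dehydrogenase complex lead it to acetyl-CoA, the fuel of the TCA cycle. The pyruvate dehydrogenase kinases phosphorylate the complex and switch it off, and are known for sparing glucose in fasted tissues and for limiting pyruvate oxidation in resting blood stem cells.

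The melanoblast libraries held 23688288 to 33710117 counts each, the adult ones 19956424 to 21572026 and the aged ones 12594770 to 16362560. Levels are given as CPM, counts per megacount of the library, after scaling by trimmed mean of M-values (TMM) factors. The 8 melanocyte lineage markers (Kit, Mitf, Sox10, Pax3, Dct, Tyrp1, Pmel and Mlana) were detected in every library, with summed levels between 12163 and 22201 CPM in melanoblasts, between 4126 and 10029 in adult and between 6965 and 8449 in aged McSC. Of these markers 6 were lower in adult McSC than in melanoblasts and 0 higher, by log2 fold changes of -1.47 for Kit, -1.09 for Mitf, -1.40 for Sox10, -1.51 for Dct, -2.63 for Pmel and -2.28 for Mlana, and 5 were lower with scaling factors from abundant genes. Ptprc, which encodes CD45, measured 0.678 to 3.17 CPM in melanoblasts, 4.15 to 7.44 in adult and 6.31 to 7.47 in aged McSC, and was 3.41-fold higher in adult McSC than in melanoblasts (edgeR adjusted p = 0.00385). Olfactory and vomeronasal receptor genes, which are known chiefly from sensory neurons, took 155 to 347 counts per megacount in melanoblasts, 706 to 1360 in adult McSC and 1467 to 1573 in aged McSC, and only Mpc1 among the 41 members had a group mean at or below the 95th percentile of those receptors (2.29 CPM in adult and 2.76 in aged). Of the counts outside the mitochondrial genome, the 41 genes together took 0.432% to 0.462% in melanoblasts, 0.282% to 0.319% in adult McSC and 0.234% to 0.32% in aged McSC, so the melanoblast libraries did not overlap the others. In bulk samples, fewer cells of a type and less RNA per cell cannot be told apart.

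Promoters of 4 members that frame the findings are printed from RefSeq (GRCm38.p6), each running from 250 bases before to 50 after an annotated start, 5′ to 3′ on the gene's own strand. Ldha and Pgk1 encode enzymes whose transcripts were far lower in adult McSC, and Slc2a1 and Pdk4 encode a transporter and a kinase whose transcripts were higher. Capitals mark the core of the hypoxia response element, ACGTG or its reverse complement CACGT, and CACGTG, an E-box that holds this core on both strands. The Ldha window lies at chr7:46845554-46845853 (plus strand), the Pgk1 window at chrX:106186850-106187149 (plus), the Slc2a1 window at chr4:119108495-119108794 (plus) and the Pdk4 window at chr6:5496229-5496528 (minus).
Ldha: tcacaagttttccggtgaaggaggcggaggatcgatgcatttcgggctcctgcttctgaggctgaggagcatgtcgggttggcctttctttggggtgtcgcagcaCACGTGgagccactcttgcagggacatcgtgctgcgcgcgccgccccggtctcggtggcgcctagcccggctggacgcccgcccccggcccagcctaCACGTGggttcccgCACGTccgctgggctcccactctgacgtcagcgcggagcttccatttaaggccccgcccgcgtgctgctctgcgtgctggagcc
Pgk1: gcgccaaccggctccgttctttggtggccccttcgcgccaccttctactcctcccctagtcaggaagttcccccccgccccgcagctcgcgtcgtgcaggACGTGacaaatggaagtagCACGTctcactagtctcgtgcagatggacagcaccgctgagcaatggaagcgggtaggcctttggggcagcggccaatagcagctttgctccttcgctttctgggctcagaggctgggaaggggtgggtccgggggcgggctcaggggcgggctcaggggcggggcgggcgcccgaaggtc
Slc2a1: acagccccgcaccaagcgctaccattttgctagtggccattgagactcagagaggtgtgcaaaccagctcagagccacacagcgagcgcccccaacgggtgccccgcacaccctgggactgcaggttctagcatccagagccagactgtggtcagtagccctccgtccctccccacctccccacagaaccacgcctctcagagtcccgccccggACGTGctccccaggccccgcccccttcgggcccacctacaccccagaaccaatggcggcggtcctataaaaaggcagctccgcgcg
Pdk4: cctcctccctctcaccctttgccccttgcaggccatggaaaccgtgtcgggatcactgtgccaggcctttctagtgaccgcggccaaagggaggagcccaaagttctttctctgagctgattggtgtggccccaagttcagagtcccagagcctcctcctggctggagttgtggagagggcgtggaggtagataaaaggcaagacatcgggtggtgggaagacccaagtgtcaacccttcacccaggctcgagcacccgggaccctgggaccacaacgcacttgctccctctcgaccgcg
The Ldha window held 5 matches to ACGTG counted on both strands, which include both strands of 2 E-boxes. The Pgk1 window held 2, the Slc2a1 window 1 and the Pdk4 window 0. RefSeq gave 60 windows for 40 of the 41 members. A match to ACGTG was found in 20 of those 40 genes (50%), against 21.8% of 27025 genes with a window. CACGTG was found in 6 members (15%, against 8.09%), AGGTCA, a nuclear receptor half-site, in 11 (27.5%, against 18.1%), its extended form AAGGTCA in 3 (7.5%, against 5.38%) and GTAAACA, a FOXO motif, in 1 (2.5%, against 4.05%). These shares are per gene, and members had more windows per gene than the 27025 genes, which had 32851 windows. Per window, ACGTG was found in 28 of 60 (against 19.6%), CACGTG in 8 (7.15%) and AGGTCA in 12 (16.3%). AAGGTCA was found in 3 (4.72%) and GTAAACA in 1 (3.65%). Each motif was searched on both strands, windows were not matched for base composition, and a match is a description of the letters only. Genes with ACGTG were found among those that fell (Ldha, Pgk1, Gapdh), rose (Slc2a1) and did not pass (Hk2, Pfkfb3) between melanoblasts and adult McSC.

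Adult McSC were compared with melanoblasts to ask how the pathway differs between newborn precursors and resting stem cells. In adult McSC 24 of the 41 transcripts were lower (58.5%) and 3 were higher, and 14 did not pass (edgeR, adjusted p under 0.05). The 3 that rose were Pdk4, Slc2a1 and Pfkp. Those that fell included glucose phosphate isomerase, the main enzymes from aldolase to lactate dehydrogenase and 10 of the 11 TCA cycle genes, with log2 fold changes from -0.71 for Ldhb to -2.28 for Eno1. Over all 31961 genes tested, 15.1% were higher and 18.3% lower. Most members are abundant transcripts, and abundant genes as a class were lower too: of the 4392 genes with a mean log2 CPM above 5, 7.26% were higher and 64.9% lower. Among the 23 members above that level, 3 were higher and 18 lower (78.3%). Median log2 fold changes were -0.86 over the 41 members, -0.83 over the abundant genes and 0.39 over all genes tested. The levels of 4 members were higher in every adult library than in every melanoblast library and those of 22 lower in every adult library, against 19.5% and 19.8% of all genes. The 4 were Slc2a1, Pfkp, Pdk4 and Eno2. For this measure the share among abundant genes was not computed.

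**Figure D1:**
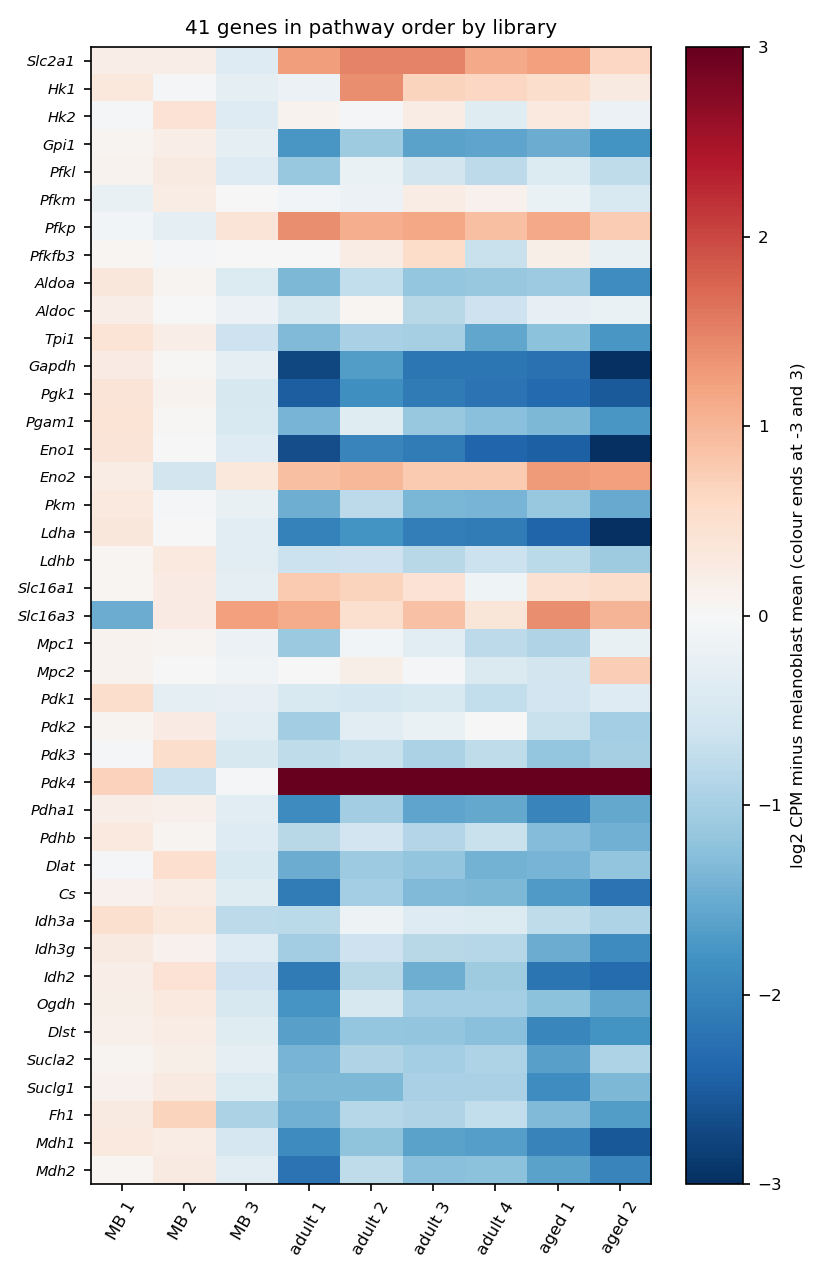
Colour shows each library's log2 CPM minus the mean of the 3 melanoblast libraries for the 41 genes in pathway order (rows), with 9 libraries in columns (MB, melanoblast) and the colour scale ending at -3 and 3. A row of strong red at Pdk4 and rows of strong blue at Gapdh, Pgk1, Eno1 and Ldha separate the 6 McSC libraries from the 3 melanoblast libraries, and the TCA cycle rows from Cs to Mdh2 are blue in all 6 McSC libraries.

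Glucose uptake and phosphorylation did not follow the later enzymes. Slc2a1, the widely expressed glucose transporter GLUT1 (chr4:119108711-119137983), measured 21.6, 21.5 and 14.3 CPM in the melanoblast libraries, 44.6, 52.6, 52.7 and 41.6 in adult and 44.3 and 28.7 in aged libraries. Every adult library lay above every melanoblast library, a 2.51-fold rise (log2 fold change 1.32, SE 0.239, adjusted p = 0.000138). The hexokinases, which trap glucose by phosphorylation, did not pass: Hk1 averaged 22.9 ± 4.7 CPM (SD, n = 3) in melanoblasts and 37.4 ± 16.2 (n = 4) in adult McSC, with groups that overlapped, and passed as higher in 8 of 19 alternative settings. Hk2 averaged 39 ± 11.1 and 38 ± 6.38 CPM. Of the phosphofructokinases, which commit sugar to glycolysis, only Pfkp passed. It measured 30.1, 26.3 and 41.8 CPM in melanoblast, 84.5, 68.8, 71.8 and 60.1 in adult and 70.3 and 54.2 in aged libraries. All 4 adult values lay above the 3 melanoblast values, a 2.18-fold rise (log2 fold change 1.12, SE 0.23, adjusted p = 0.000556). Pfkl averaged 21.3 ± 4.78 CPM in melanoblasts and 13.6 ± 3.69 in adult McSC, and Pfkm 6.92 ± 1.03 and 7.02 ± 0.886. Pfkfb3, which makes the activator of phosphofructokinase, averaged 14.3 ± 0.594 and 15.3 ± 4.95 CPM. With scaling factors from abundant genes Hk1 (log2 fold change 1.45), Hk2 (0.79), Pfkm (0.80) and Pfkfb3 (0.87) passed as higher, and Pfkl (0.12) did not. Melanoblast means of the genes in this paragraph ran from 6.92 (Pfkm) to 39 CPM (Hk2). Those of the glycolysis members that fell ran from 23.1 (Pgam1) to 925 (Gapdh). The part of abundance in this contrast was not tested.

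The enzymes after phosphofructokinase fell in adult McSC, led by enolase, phosphoglycerate kinase and glyceraldehyde phosphate dehydrogenase. Eno1, the main enolase (chr4:150236721-150248879), measured 194, 149 and 114 CPM in melanoblast, 23.5, 37.9, 34.9 and 28.8 in adult and 27.1 and 16.8 in aged libraries. The lowest melanoblast library was above the highest McSC library, and the adult mean was 4.87-fold lower (log2 fold change -2.28, SE 0.244, adjusted p = 1.22e-07). Pgk1, the phosphoglycerate kinase that yields ATP (chrX:106187100-106203699), measured 96.2, 79 and 53.2 CPM in melanoblast, 13.4, 20.7, 17 and 15.9 in adult and 14.6 and 12.8 in aged libraries. It too showed no overlap between melanoblast and McSC libraries and was 4.55-fold lower (log2 fold change -2.19, SE 0.236, adjusted p = 1.39e-07). Gapdh, often used as a reference gene (chr6:125161715-125166467), measured 1092, 934 and 748 CPM in melanoblast, 138, 287, 203 and 204 in adult and 195 and 112 in aged libraries. Its adult level was 4.44-fold lower, again without overlap between adult and melanoblast values (log2 fold change -2.15, SE 0.259, adjusted p = 7.51e-07). Gpi1, the isomerase at the entry of glycolysis, measured 129, 139 and 101 CPM in melanoblast, 36.2, 58.6, 39.8 and 40.7 in adult and 43.8 and 35.1 in aged libraries. It fell 2.81-fold, with every McSC value below every melanoblast value (log2 fold change -1.49, SE 0.223, adjusted p = 1.54e-05).

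Smaller falls were measured for the aldolase Aldoa (-1.11), the triose phosphate isomerase Tpi1 (-1.25), the mutase Pgam1 (-1.02) and the pyruvate kinase Pkm (-1.24), as log2 fold changes. Of these, only Pgam1 had overlapping groups, with 16.4 to 29.9 CPM in melanoblast and 8.49 to 17.5 in adult libraries. The minor aldolase and enolase genes behaved otherwise. Aldoc averaged 5.23 ± 0.707 CPM in melanoblasts and 3.86 ± 1.07 in adult McSC and did not pass. Eno2, the enolase known from neurons, measured 3.86, 2.24 and 4.12 CPM in melanoblast, 6.12, 6.59, 5.65 and 5.7 in adult and 8.01 and 7.76 in aged libraries. The 3 groups did not overlap, yet the log2 fold change of 0.82 between adult McSC and melanoblasts missed the threshold (SE 0.331, adjusted p = 0.0576). It passed in 8 of 19 alternative settings.

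**Figure D2:**
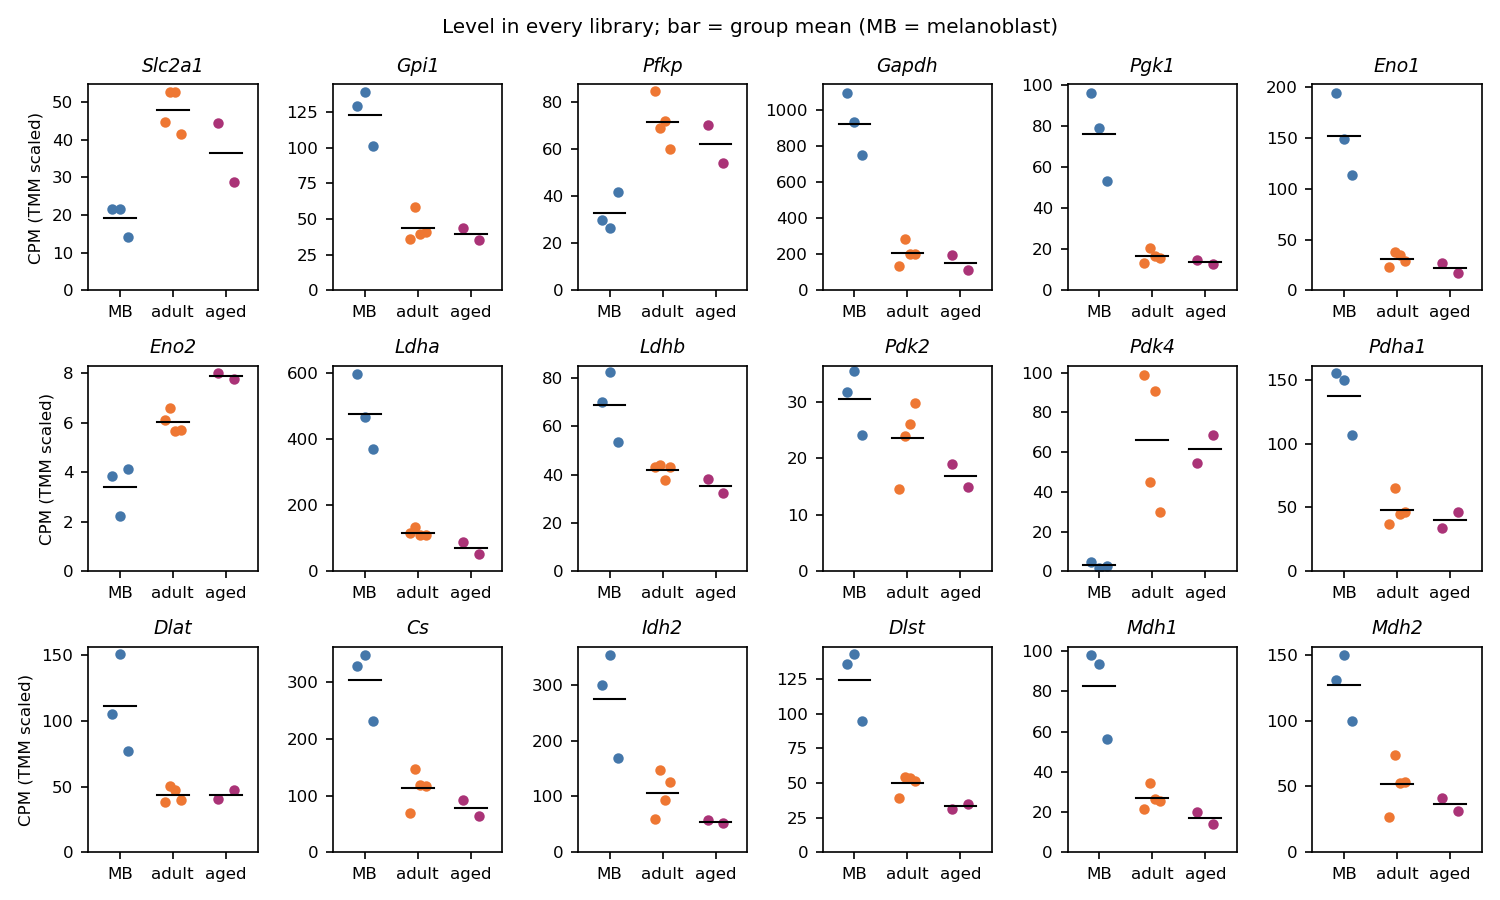
Each panel plots the TMM-scaled CPM (linear axis from 0) of 1 gene in the 3 melanoblast (MB), 4 adult and 2 aged libraries, with the bar at the group mean. Slc2a1, Pfkp, Pdk4 and Eno2 sit higher in every adult library than in any melanoblast library, and the other genes shown, except Pdk2, sit lower.

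Of the 4 lactate genes, both dehydrogenase subunits fell, Ldha 4.05-fold and Ldhb 1.63-fold, and neither transporter passed. Ldha, the subunit that favours reduction of pyruvate to lactate (chr7:46841475-46855627), measured 596, 467 and 369 CPM in melanoblast, 115, 135, 111 and 110 in adult and 89.1 and 52 in aged libraries. The 3 groups did not overlap, and the adult level was below that of melanoblasts (log2 fold change -2.02, SE 0.235, adjusted p = 4.47e-07). Ldhb, the subunit that favours oxidation of lactate, measured 70, 82.6 and 53.3 CPM in melanoblast, 43.1, 43.9, 37.8 and 43.2 in adult and 38.3 and 32.3 in aged libraries. Its McSC values lay below its melanoblast values, while adult and aged values overlapped (log2 fold change -0.71 for adult against melanoblast, SE 0.213, adjusted p = 0.0126), and the sign turned to 0.10 when scaling factors came from abundant genes. Of the transporters, Slc16a1 (MCT1) averaged 42.6 ± 7.73 CPM in melanoblasts and 58.7 ± 14.9 in adult McSC, and Slc16a3 (MCT4) 2.05 ± 1.58 and 2.63 ± 0.647.

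At the step between glycolysis and the mitochondrion, the pyruvate dehydrogenase complex fell while Pdk4, 1 of its 4 kinases, rose 21.2-fold. Pdk4 (chr6:5483351-5496309) measured 4.73, 1.88 and 2.81 CPM in melanoblast, 98.8, 44.9, 90.8 and 30.1 in adult and 54.6 and 68.6 in aged libraries. The lowest McSC library was well above the highest melanoblast library, although the adult libraries ranged from 30.1 to 98.8 CPM. The log2 fold change was 4.41 (SE 0.421, adjusted p = 1.49e-07). The other kinases moved less. Pdk2 measured 31.8, 35.4 and 24.1 CPM in melanoblast, 14.6, 24, 26 and 29.8 in adult and 19 and 14.9 in aged libraries. Its adult and melanoblast values overlapped, and it did not pass. Pdk1 measured 30.4, 17.4 and 17.6 CPM in melanoblast, 15.4, 14.5, 15.3 and 12.7 in adult and 14.2 and 16 in aged libraries. Every adult value was below every melanoblast value, but it did not pass. Pdk3 measured 10.3, 15.6 and 7.78 CPM in melanoblast, 6.31, 6.76, 5.61 and 6.33 in adult and 4.81 and 5.44 in aged libraries. It fell (log2 fold change -0.84, adjusted p = 0.0291), a call that was lost in 12 of 19 alternative settings.

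All 3 subunits listed here fell, 2 of them under both scalings used. Pdha1, the catalytic alpha subunit that the kinases phosphorylate, measured 155, 150 and 107 CPM in melanoblast, 36.8, 65.4, 44.9 and 46.4 in adult and 34.2 and 46.4 in aged libraries. It was 2.84-fold lower in adult McSC, with McSC and melanoblast values apart (log2 fold change -1.51, SE 0.232, adjusted p = 2.18e-05). Dlat, the acetyl transfer core, measured 105, 151 and 77.4 CPM in melanoblast, 38.2, 50.3, 47.5 and 40.2 in adult and 40.4 and 47.1 in aged libraries. It was 2.52-fold lower, also without overlap with melanoblasts (log2 fold change -1.34, SE 0.23, adjusted p = 8.41e-05). Pdhb, the beta subunit, averaged 85.4 ± 19.9 CPM in melanoblasts and 50.4 ± 4.96 in adult McSC (log2 fold change -0.76, adjusted p = 0.00838). Its value turned to 0.04 (adjusted p = 0.824) with factors from abundant genes, and its call was also lost with a stricter filter and without melanoblast replicate 1. The genes of the mitochondrial pyruvate carrier did not pass: Mpc1 averaged 2.97 ± 0.313 and 2.05 ± 0.636 CPM, and Mpc2 27.3 ± 2.06 and 26.1 ± 4.35.

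In the TCA cycle 10 of 11 members were lower in adult McSC, with a median log2 fold change of -1.18, and Idh3a alone did not pass (26 ± 10.6 CPM in melanoblasts and 18.2 ± 3.3 in adult McSC). Cs, the citrate synthase that opens the cycle, measured 329, 349 and 232 CPM in melanoblast, 69.7, 148, 119 and 117 in adult and 91.7 and 64.6 in aged libraries. The McSC values lay below the melanoblast values, with adult and aged values overlapping, and it was 2.68-fold lower in adult McSC (log2 fold change -1.42, SE 0.247, adjusted p = 9.31e-05). Idh2, the mitochondrial isocitrate dehydrogenase that makes NADPH, measured 299, 353 and 169 CPM in melanoblast, 59.7, 147, 93.9 and 125 in adult and 57.5 and 52.6 in aged libraries. The 3 groups were separate, and the adult level was 2.57-fold lower (log2 fold change -1.36, SE 0.273, adjusted p = 0.000442). Dlst, a subunit of the oxoglutarate dehydrogenase complex, measured 136, 143 and 95 CPM in melanoblast, 39.5, 54.6, 53.7 and 51.3 in adult and 31.5 and 35.2 in aged libraries. It was 2.5-fold lower in adult McSC (log2 fold change -1.32, SE 0.216, adjusted p = 4.69e-05), again without overlap.

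Both malate dehydrogenases fell. Mdh1, the cytosolic enzyme of the malate-aspartate shuttle, measured 98.1, 93.7 and 56.5 CPM in melanoblast, 21.7, 34.7, 26.3 and 25.7 in adult and 20.2 and 13.9 in aged libraries. The groups were separate, and it was 3.05-fold lower in adult McSC (log2 fold change -1.61, SE 0.24, adjusted p = 1.46e-05). Mdh2, the mitochondrial enzyme that closes the cycle, measured 131, 150 and 99.3 CPM in melanoblast, 26.8, 74, 52.7 and 53.2 in adult and 41 and 31.7 in aged libraries. It was 2.46-fold lower without overlap between adult and melanoblast values (log2 fold change -1.30, SE 0.262, adjusted p = 0.000491). The other members fell by log2 fold changes of -0.86 for Idh3g, -1.04 for Ogdh, -1.06 for Sucla2, -1.18 for Suclg1 and -1.10 for Fh1. Of these, Ogdh and Fh1 had overlapping groups: Ogdh measured 195 to 333 CPM in melanoblast and 79.1 to 196 in adult libraries, and Fh1 14.6 to 45 and 10.4 to 16.9. Melanoblast replicate 3 had the lowest level of its group for 34 of the 41 members (median log2 deviation from the group mean -0.34, and -0.31 for abundant genes). Without that library 27 members were lower and 4 higher, against 6659 lower and 7400 higher of the 31799 genes then tested.

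**Figure D3:**
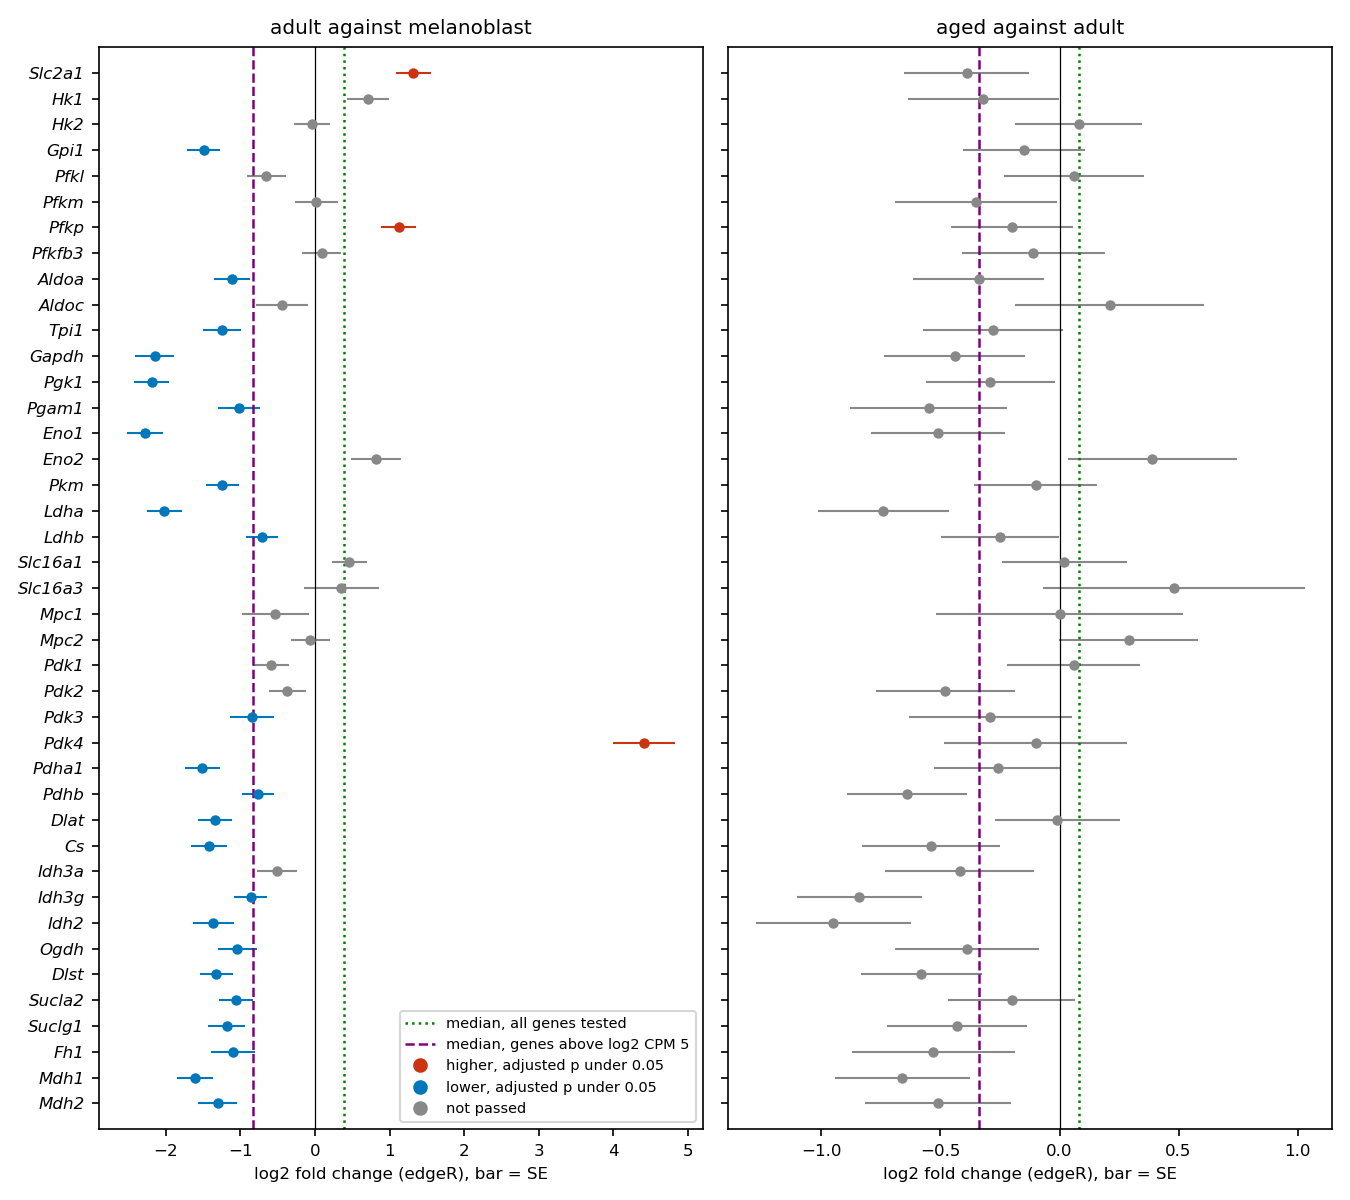
Points are edgeR log2 fold changes and bars their SE for the 41 genes in pathway order, adult against melanoblast on the left and aged against adult on the right, on separate axis ranges. Lines mark the median of all genes tested (0.39 and 0.08) and of genes above log2 CPM 5 (-0.83 and -0.34); Pdk4 at 4.41 stands apart on the left, and no point passes on the right.

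These counts depend on what is held level between libraries. When factors were computed from the abundant genes, the median log2 fold change of all genes moved by 0.76, from 0.39 to 1.15, and the split over all genes went from 4836 higher and 5840 lower to 10416 higher and 1985 lower. The members then split into 10 higher and 13 lower, with a median of -0.07. The 13 that fell under both scalings were Gpi1, Gapdh, Pgk1, Eno1, Pkm, Ldha, Pdha1, Dlat, Cs, Idh2, Dlst, Mdh1 and Mdh2, and each kept its call in all 19 alternative settings. The 11 others lost the call, with values between -0.43 for Tpi1 and 0.10 for Ldhb. Pdk4 (5.25), Slc2a1 (2.13) and Pfkp (1.87) stayed higher, and they passed in all 19 settings. Hk1, Hk2, Pfkm, Pfkfb3, Eno2, Slc16a1 and Mpc2 joined them under this scaling. Of the 23 abundant members 56.5% were then lower, against 27.3% of the abundant genes. Within the TCA cycle 5 members (Cs, Idh2, Dlst, Mdh1 and Mdh2) stayed lower.

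**Figure D4:**
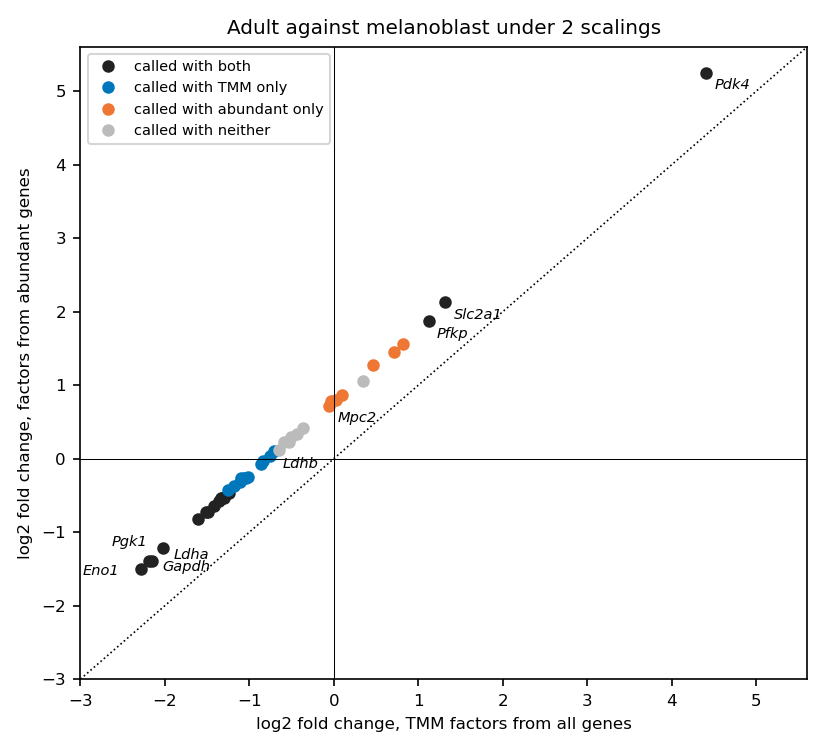
Each point is 1 of the 41 genes, with the log2 fold change of adult against melanoblast under TMM factors from all genes (x) and under factors from abundant genes (y); the dotted line marks equal values. All points lie above the line, and those of Eno1, Pgk1, Gapdh and Ldha stay at or below -1.22 on the y axis while Pdk4 lies at 5.25.

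Ratios between paralogues within a library do not depend on that scaling. Counts were divided by transcript length, and mean log2 ratios were compared over libraries with an exact two-sided permutation test, whose smallest possible p is 0.0571 for 4 against 3 libraries. Of 11 pairs, 6 had adult ratios that did not overlap those of melanoblasts, each at that smallest exact p of 0.0571 (0.21 after adjustment over 22 tests), so none could pass 0.05. How many other gene pairs separate in this way was not computed. Of single genes, 19.5% lay wholly higher and 19.8% wholly lower in adult McSC. Abundant genes had a lower median log2 fold change (-0.83) than all genes (0.39), and its part in the ratios was not tested. The log2 ratio of Pdk4 to Pdk2 was 4.68 higher in adult McSC, from -3.95 ± 0.76 (SD, n = 3) to 0.73 ± 1.18 (n = 4). Of the transcripts of the 4 kinases per length, Pdk4 made up 5.18%, 1.99% and 4.33% in melanoblast, 69.5%, 43.6%, 60.3% and 31.6% in adult and 53.8% and 61.5% in aged libraries. It was thus the most abundant kinase transcript in 3 of the 4 adult and both aged libraries, while Pdk2 led in all melanoblast libraries and in adult replicate 4 (48.5%). The log2 ratio of Eno2 to Eno1 was 3.11 higher in adult McSC. Eno2 made up 1.42%, 1.08% and 2.54% of enolase transcripts in melanoblast, 15.9%, 11.2%, 10.5% and 12.6% in adult and 17.6% and 25.1% in aged libraries.

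The log2 ratio of Ldhb to Ldha was 1.31 higher in adult McSC. Ldha made up 86.3%, 80.7% and 83.6% of lactate dehydrogenase transcripts in melanoblast, 66.3%, 69.5%, 68.3% and 65.2% in adult and 63.2% and 54.3% in aged libraries, so it was the larger share in every library. These shares rest on the length of the principal transcript: with the length of all annotated exons, Ldha made up 43.3% in aged replicate 2 and 52.4% to 80.2% in the other libraries, so Ldhb was then the larger share in that library. The ratio of Pfkp to Pfkm was 1.12 higher on the log2 scale, and Pfkp took 49.1% ± 10.2 of the phosphofructokinase transcripts in melanoblasts, 73.7% ± 4.89 in adult and 72.4% ± 0.5 in aged McSC. With the length of all exons the Pfkp shares were 31.9% ± 8.63, 56.2% ± 6.04 and 55.2% ± 0.71, and Pfkl averaged 41.3% in melanoblasts, above Pfkp. The ratios of Aldoc to Aldoa and of Mpc2 to Mpc1 were 0.62 and 0.50 higher. The ratios Hk2 to Hk1 (-0.64), Pfkl to Pfkm (-0.68), Pdk3 to Pdk2 (-0.39), Pdk1 to Pdk2 (-0.14) and Slc16a3 to Slc16a1 (0.18) overlapped between the groups.

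**Figure D5:**
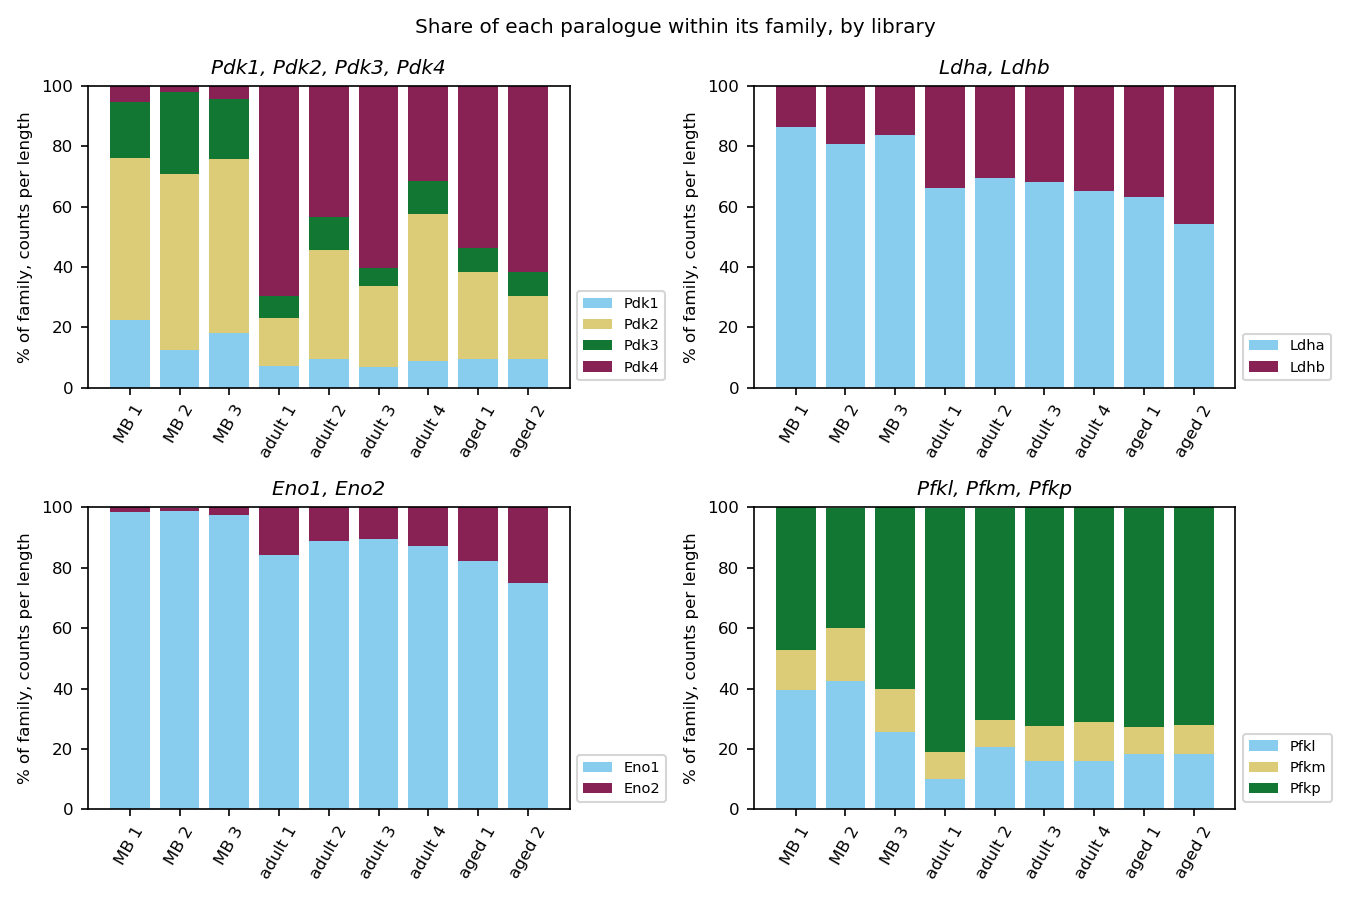
Stacked bars give each paralogue's percentage of its family's counts per transcript length in each of the 9 libraries, for the pyruvate dehydrogenase kinases, lactate dehydrogenases, enolases and phosphofructokinases. The Pdk4 segment grows from 1.99% to 5.18% in melanoblast libraries to 31.6% to 69.5% in adult libraries, and the Ldha segment shrinks to 54.3% in aged replicate 2.

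Per kilobase of transcript, Gapdh and Ldha had the highest means of the members in all groups. They stood at 651 ± 121 and 270 ± 64.4 CPM per kilobase in melanoblasts and 147 ± 43 and 66.6 ± 6.82 in adult McSC. In both of these groups the ranges of this pair did not overlap. Idh2 came next at 157 ± 54.1 in melanoblasts, and its range overlapped that of Cs (104 ± 21.4), which was next in order. In adult McSC the Ldha range (62.1 to 76.7) lay within that of Idh2 (34.2 to 84.1). In aged McSC the Ldha range (29.4 to 50.4) overlapped those of several members, such as Pkm (29.3 to 37.8) and Mpc2 (18.1 to 44.4). Pdk4 stood 40th of 41 in melanoblasts at 0.901 ± 0.418, 13th in adult McSC at 19 ± 9.7 and 12th in aged McSC at 17.7 ± 2.83. Slc2a1 moved from 31st (5.87 ± 1.29) to 19th (14.7 ± 1.74), and Pfkp from 28th (7.9 ± 1.95) to 15th (17.2 ± 2.44). Slc16a3 had the lowest mean of the members in each group.

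Aged McSC were compared with adult McSC to ask whether the pathway shifts with age in resting cells. No member passed (0 higher and 0 lower in edgeR, against 0.0532% and 0.25% of all genes and 0.0911% and 0.751% of abundant genes), DESeq2 called 0 and limma voom called 3 lower. An unadjusted p under 0.05 was found for 6 of the 41 members and for 3275 of the 31961 genes. The 6 became 0 without aged replicate 2, 11 without aged replicate 1 and 10 without adult replicate 1, and 4 to 7 without any other library. Over all genes limma voom called 772 higher and 644 lower. The median log2 fold change was -0.29 over the members, -0.34 over abundant genes and 0.08 over all genes. All 11 TCA cycle members had a log2 fold change below 0 (median -0.53), whereas with factors from abundant genes 9 of the 11 were below 0 (median -0.14) and the median of the 41 members was 0.08. The 4 members with the smallest p were Idh3g, Idh2, Ldha and Pdhb, and in each both aged libraries lay below all 4 adult libraries. Idh3g, a regulatory subunit of the NAD-dependent isocitrate dehydrogenase, measured 29.8, 39.4, 34 and 33.6 CPM in adult and 21.7 and 16.5 in aged libraries, after 73.2, 66.6 and 46.6 in melanoblast libraries. Its log2 fold change was -0.84 (SE 0.263, adjusted p = 0.268). Idh2 stood at -0.95 (SE 0.326, adjusted p = 0.312) and Ldha at -0.74 (SE 0.274, adjusted p = 0.373). Pdhb measured 103, 89.2 and 63.9 CPM in melanoblast, 47.4, 56.3, 45.4 and 52.5 in adult and 34.1 and 30.6 in aged libraries, and stood at -0.64 (SE 0.253, adjusted p = 0.409). The 3 called by limma voom were Ldha, Idh3g and Idh2.

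In all, 8 members were lower in both aged libraries than in every adult library and 1 was higher, against 12.1% and 15.5% of all genes. The 8 were Pfkm, Ldha, Pdk3, Pdhb, Idh3g, Idh2, Dlst and Mdh1, and the higher member was Eno2. For abundant genes this share was not computed. Of the 11 paralogue ratios, only Eno2 to Eno1 (0.92 higher in aged McSC) and Ldhb to Ldha (0.53 higher) did not overlap between adult and aged libraries, each with an exact permutation p of 0.133, the smallest that 2 against 4 libraries allow. The share of other gene pairs that separate here was not computed. Pdk4 averaged 66.2 ± 33.8 CPM (SD, n = 4) in adult and 61.6 ± 9.87 (n = 2) in aged McSC.

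Aged McSC were also set against melanoblasts, a comparison that shares the melanoblast libraries with the adult one. Here 26 members were lower and 4 higher, against 20.3% and 20.4% of all genes, and 5.74% of abundant genes were higher and 72.4% lower. The aged libraries lay wholly above the melanoblast libraries for 5 members and wholly below for 29, against 40.4% and 25.7% of all genes. For abundant genes these shares were not computed. The 4 that rose were Pdk4 (19.7-fold), Eno2 (2.31-fold, log2 fold change 1.21, SE 0.381, adjusted p = 0.015), Slc2a1 (1.91-fold) and Pfkp (1.9-fold). Without aged replicate 1, Pdk4 alone of these passed, with the remaining aged library assumed to vary like the other groups. All 11 TCA cycle members were lower, from -0.93 for Idh3a to -2.31 for Idh2. The largest falls were those of Eno1 (-2.79), Ldha (-2.76), Gapdh (-2.59) and Pgk1 (-2.47). Pdk2, which did not pass between adult and melanoblast, was lower in aged McSC (-0.84, adjusted p = 0.0327), and the difference between those comparisons is the aged against adult value, which did not pass. With factors from abundant genes 12 members were lower and 11 higher, against 1770 lower and 15341 higher of the 31961 genes tested. Of the 4392 abundant genes, 1124 were then lower and 1207 higher.

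Other genes of the same pathways were listed by membership, with earlier results of these data known. Of 15 further TCA cycle genes 12 were lower in adult McSC than in melanoblasts and 0 higher, with a median of -1.13, and 6 stayed lower with factors from abundant genes. Of all 31961 genes, 15.1% were higher and 18.3% lower, and 10416 were higher and 1985 lower with those factors. Idh1, the cytosolic isocitrate dehydrogenase, averaged 94.4 ± 26.7 CPM in melanoblasts and 23.5 ± 4.8 in adult McSC (4.01-fold lower). Sdhd, a membrane anchor of succinate dehydrogenase, averaged 61.8 ± 19.7 and 15.5 ± 1.36 CPM (4-fold lower), and Suclg2, a succinyl-CoA ligase subunit, 86.1 ± 21.7 and 25.7 ± 6.82 (log2 fold change -1.75). Of 13 further pyruvate genes 5 were lower and 1 higher. Dld, the shared dehydrogenase subunit of the pyruvate and oxoglutarate complexes, fell from 182 ± 51.8 to 56.8 ± 7.99 CPM (-1.68), and Pdpr, a regulator of the pyruvate dehydrogenase phosphatase, from 65.8 ± 11.6 to 25.4 ± 4.47 (-1.37). Me1, the cytosolic malic enzyme that makes pyruvate and NADPH, rose from 3.16 ± 1.32 to 15.6 ± 4.44 CPM (2.31).

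Of 20 further glycolysis and lactate genes 2 were higher and 3 lower. Slc2a3, the glucose transporter GLUT3, measured 4.05, 0.73 and 4.97 CPM in melanoblast, 19.2, 16.8, 10.5 and 9.2 in adult and 32.3 and 34.7 in aged libraries. The 3 groups did not overlap, and the log2 fold change of adult against melanoblast was 2.10 (SE 0.429, adjusted p = 0.000867). Pfkfb4, a bifunctional regulator of phosphofructokinase, rose from 2.2 ± 1.97 to 8.13 ± 0.86 CPM (1.88). Bsg, the chaperone of the lactate transporters, fell from 162 ± 36.5 to 64.8 ± 11.8 CPM (-1.32). Of 20 hypoxia factors and targets 4 were higher and 8 lower, against 15.1% and 18.3% of all genes. Epas1, which encodes HIF-2 alpha, rose from 9.84 ± 2.07 to 80.2 ± 20.6 CPM (3.03), while Vhl, which marks HIF proteins for destruction, fell from 17.5 ± 2.94 to 4.35 ± 0.262 (-2.01) and the mitophagy receptor Bnip3l from 270 ± 57.1 to 104 ± 14.6 (-1.38). With factors from abundant genes the hypoxia list split into 11 higher and 4 lower, against 10416 higher and 1985 lower of all 31961 genes.

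Of 17 genes of the PPAR, FOXO and glucocorticoid list, regulators known to act on Pdk4 in other tissues and their targets, 6 were higher and 4 lower, and 10 were higher and 0 lower with factors from abundant genes. Over all 31961 genes, 15.1% were higher and 18.3% lower, and 10416 were higher and 1985 lower with those factors. The 4 that fell were Ppard (log2 fold change -0.86), Foxo4 (-1.14), Cpt1a (-1.03) and Acadvl (-0.85). They lost their calls with those factors. The nuclear receptor Pparg rose from 2.33 ± 1.37 to 23.4 ± 2.28 CPM (3.33) and its relative Ppara from 0.943 ± 0.261 to 5.56 ± 1.96 (2.56). The melanoblast mean of Ppara lay below the 95th percentile of olfactory and vomeronasal receptor genes in that group (0.965 CPM). Of the genes named from these lists by smallest p, those with a fall (Idh1, Sdhd, Suclg2, Dld, Pdpr, Bsg, Vhl, Bnip3l) and those with a rise kept their calls with factors from abundant genes. In aged against adult McSC none of the 109 list genes passed in edgeR, 18 had an unadjusted p under 0.05 (3275 of all 31961 genes did), DESeq2 called 1 higher, and limma voom 3 higher and 5 lower (772 and 644 of all genes).

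Markers of other skin cells moved with the groups. Of 15 keratinocyte and hair follicle markers 14 were higher and Cdh1, which melanoblasts also expressed at 1479 to 2102 CPM, was lower in adult McSC than in melanoblasts. The 14 without Cdh1 summed to 88 to 281 CPM in melanoblasts, 1104 to 2434 in adult McSC and 959 to 1119 in aged McSC. Of 9 Schwann cell markers 5 were higher in adult McSC (791 to 1056 CPM, against 387 to 552) and 6 lower in aged McSC (301 to 385 CPM). Of 11 endothelial markers 5 were higher in adult McSC (93.8 to 319 CPM, against 64.2 to 107, with 75.1 to 86 in aged libraries). Of 10 fibroblast markers 2 were higher and 5 lower in adult McSC (487 to 955 CPM, against 589 to 2146), and 3 were lower in aged McSC (130 to 245 CPM). Of 13 macrophage and dendritic cell markers 4 were higher (Adgre1, Lyz2, Cd14 and Itgam) and 0 lower in adult McSC (45.1 to 65.9 CPM, against 29.1 to 45.8, with 65.7 to 89.7 in aged libraries). Mast cell markers summed to 20.7 to 34.5 CPM in melanoblasts, 10.4 to 16.4 in adult McSC and 13.4 to 14.5 in aged McSC, with 2 of 9 tested lower in adult McSC (1 higher and 1 lower with factors from abundant genes). Of 8 pericyte and smooth muscle markers 2 were lower in adult McSC, and 3 were higher and 0 lower with factors from abundant genes. That scaling gave 9 Schwann cell, 8 endothelial and 5 macrophage and dendritic cell markers higher and 0 lower. Fibroblast markers then split into 2 higher and 1 lower, and keratinocyte and hair follicle markers stayed at 14 and 1. Of all 31961 genes, 10416 were then higher and 1985 lower. Of these lists no marker was at 0 in every library of a group. The part of such cells, or of the lower lineage markers, in the levels of Pdk4, Slc2a1, Pfkp or the genes that fell was not tested.

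Near-identical copies bear on some members, since the handling of multi-mapped reads is not given in the sources used here. At 95% identity or more, 98 annotated pseudogene copies were found for 10 members, 87 of them for Gapdh. Counts on the Gapdh copies were 3.42% to 23.3% of those on gene and copies together, and adding them gave a log2 fold change of -1.98 for adult against melanoblast. Eno1 had 2 pseudogene copies and the coding copy Eno1b, and Gapdh the coding copies Gm10358 and Gm3839. Adding the pseudogene counts changed no member's call in adult against melanoblast. Ldha, Pdk4, Slc2a1 and Pfkp had no such copy.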

How the data were processed

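RNA-seq libraries of 3 melanoblast, 4 adult McSC and 2 aged McSC pools were used, grouped and numbered by their titles. Per the labels' protocols, cDNA was amplified from 20 ng of RNA with an integrity number over 8.5, and 1000 ng of it went into libraries with 10 PCR cycles, sequenced as 126-base read pairs. Amplification gives no molecule counts and can change the balance of transcripts. The authors' tools, per the submitters' processing notes, were Trimmomatic 0.36, STAR 2.5.2, SAMtools 1.9, FastQC 0.11.8 and DESeq2 1.22.2 with build mm10. Each deposited file holds whole-number read counts by Ensembl gene that were not normalized. How reads were counted (program, annotation, strand, multi-mapping) is not given in the sources used here.

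Symbols and coordinates came from GENCODE vM21 (GRCm38), which matched 49412 of 49671 genes. The 259 unmatched genes, with 0.029% of counts, were tested too. A gene with 0 counts could be present at up to 3 counts, which is 0.089 to 0.238 counts per megacount before TMM scaling. Libraries of a group differed by more than sampling noise (chi-square over degrees of freedom from 15.2 to 63.3). Each was treated as a replicate from its numbered title, and this measure cannot show that the pools are independent.

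Members and lists were chosen with earlier results of these data known. edgeR 4.0.16 (R 4.3.3) with TMM factors and filterByExpr kept 31961 genes. A group means model over all 9 libraries, without covariates, gave robust quasi-likelihood F tests, with Benjamini-Hochberg adjustment over all genes within each comparison at 0.05. Standard errors (SE) came from the F statistic. Paralogue ratios used a prior count of 2 and lengths of the longest principal coding transcript. The scripts were tested on simulated data. Values in every library are printed for the 14 members with the largest change past the threshold in adult against melanoblast, the 4 with the smallest p in aged against adult, and their paralogues. Up to 3 genes per other list were named by smallest p. A gene that this rule names is not reported here. The values by library of Pfkp, Slc2a3 and Txnip fall outside this rule and were chosen after they were seen. Ppard, Foxo4, Cpt1a and Acadvl were also named outside it.

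The alternatives tried were RLE factors, DESeq2 1.42.0, voom in limma 3.58.1 with sample weights, factors from abundant genes (mean log2 CPM above 5), leaving out mitochondrially encoded genes, no filter, a stricter filter (5 CPM in 2 libraries), only the compared groups, counts of near-identical copies added, the replicate number as a block, and each library left out. For ratios they were a prior count of 0.5, added copies and each library left out, and for shares the length of all annotated exons, chosen after seeing the data.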

Additional observations from a re-analysis of the deposited data

Results flagged for a closer look

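Among the 4 adult libraries, Pkm, the pyruvate kinase gene, measured 119 CPM in replicate 2 and 73.7, 79.3 and 77.5 CPM in the others, so the highest library stood far from the rest. Adult replicate 2 had the highest level of its group for 29 of the 41 members (median log2 deviation from the group mean 0.22, and 0.27 for abundant genes). Ldhb measured 37.8 CPM in adult replicate 3 and 43.1, 43.9 and 43.2 CPM in the others, so the lowest library stood apart. The criterion is Dixon's at 95%, which chance meets in about 1 of 20 groups, and it was applied to 41 genes in the adult group only. Without adult replicate 2, 25 members were lower than in melanoblasts, Pkm among them, against 5999 of the 31748 genes then tested.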

How the results depend on the processing

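Adult against melanoblast gave 3 members higher and 24 lower. The higher count was 5 with limma voom, without mitochondrially encoded genes, without a filter and with only the 2 groups in the fit. It was 6 with the stricter filter and 10 with factors from abundant genes, where the lower count was 13. Counts over all genes moved too, from 4836 higher and 5840 lower of 31961 in the main fit. Limma voom gave 7508 and 7273, and factors from abundant genes 10416 and 1985. Without mitochondrially encoded genes they were 5827 and 4876 of 31496, and without a filter 6630 and 4867 of 45758. With only the 2 groups they were 4235 and 5538 of 26138, and with the stricter filter 3531 and 3346 of 13639. Leaving out each library gave 3 to 4 higher and 21 to 27 lower, against 3526 to 7400 and 4396 to 6659 over all genes. In that comparison, factors from abundant genes turned Ldhb to 0.10 and Pdhb to 0.04 on the log2 scale. Aged against adult stayed at 0 higher and 0 lower under all alternatives except limma voom (3 lower), also with each library left out (0 to 0). Aged against melanoblast (4 higher, 26 lower) gave 8 higher with the stricter filter and 11 higher and 12 lower with factors from abundant genes. Under that last scaling Ldhb turned to 0.20, Pdk2 to 0.31, Pdk3 to 0.03 and Idh3a to 0.26. Over all genes, 6514 of 31961 were higher in the main fit and 4160 of 13639 with the stricter filter. Factors from abundant genes gave 15341 higher and 1770 lower of 31961. Leaving out a library gave 1 to 5 higher and 22 to 27 lower, with 1 higher without aged replicate 1. The causes of these changes were not tested.

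With the replicate block, 3 members were higher and 23 lower in adult against melanoblast (Pdk3 was lost), 0 in aged against adult, and 4 and 26 in aged against melanoblast. Of all 31961 genes, the block fit called 3965 higher and 5070 lower in adult against melanoblast and 40 and 132 in aged against adult. In aged against melanoblast it called 6494 and 6246. The labels do not say whether equal numbers mark a shared litter, day or batch. Same-numbered deviations from the group means correlated at -0.08 to 0.202 over 7 pairs, 1 of them above 0.1. Of 3 melanoblast libraries, 1 correlated best with the adult library of its own number. With so few libraries per group, these correlations cannot settle whether the numbers pair the libraries. Ratios that changed sign were, over each library left out, Pdk1 to Pdk2 (-0.40 to 0.08, with 0.04 without adult replicate 4 and 0.08 without melanoblast replicate 1) and Slc16a3 to Slc16a1 (-0.51, without melanoblast replicate 1, to 0.90), and, in aged against adult without aged replicate 2, Mpc2 to Mpc1 (-0.17 to 0.44) and Pdk3 to Pdk2 (-0.10 to 0.42). With the length of all exons, mean Ldha shares moved to 76.5%, 57% and 47.9% in melanoblast, adult and aged libraries and mean Eno2 shares to 2.62%, 18.4% and 29.9%. The aged libraries had the lowest depth, and how that bears on the comparison with age was not tested.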

Other observations

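The pentose phosphate pathway branches from glucose 6-phosphate and supplies NADPH and ribose, and 6 of its 7 listed genes were lower in adult McSC than in melanoblasts and 0 higher. G6pdx, which opens the branch, averaged 47.2 ± 9.09 CPM (SD, n = 3) in melanoblasts and 24.6 ± 2.86 (n = 4) in adult McSC (log2 fold change -0.94). Pgd, which releases carbon dioxide in the same branch, averaged 52.4 ± 10.4 and 24.5 ± 2.84 CPM (-1.10), and the lactonase Pgls 11.4 ± 1.89 and 5.15 ± 1.08 CPM (-1.15). With factors from abundant genes 0 of the 7 passed in either direction. All genes split into 15.1% higher and 18.3% lower in the main fit.

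Shuttles carry the electrons of glycolytic NADH into mitochondria, and 5 of 7 listed genes were lower and 0 higher. The mitochondrial aspartate aminotransferase Got2 averaged 78.4 ± 26.2 CPM in melanoblasts and 29.4 ± 4.88 in adult McSC (log2 fold change -1.41, and -0.60 with factors from abundant genes). Gpd1l averaged 54.9 ± 6.14 and 24.2 ± 5.94 CPM (-1.18), and the aspartate and glutamate carrier Slc25a13 14.7 ± 2.28 and 5.9 ± 1.17 CPM (-1.31). Both of these lost their call under that scaling. Of 10 genes of the MYC and MondoA network, 3 were higher and 3 lower, and 6 were higher and 1 lower under that scaling. All 31961 genes split into 4836 higher and 5840 lower in the main fit and 10416 and 1985 under that scaling. Txnip, which MondoA induces and which restrains glucose uptake, measured 110, 99.6 and 42.7 CPM in melanoblast, 220, 236, 235 and 235 in adult and 132 and 122 in aged libraries. The 3 groups did not overlap, with a log2 fold change of 1.46 (SE 0.263, edgeR adjusted p = 0.000142) for adult against melanoblast and -0.86 (SE 0.297, adjusted p = 0.319) for aged against adult. The MYC partner Max averaged 141 ± 27.7 and 67.9 ± 11.8 CPM (-1.05), and the MYC antagonist Mxd4 126 ± 23 and 56 ± 10.3 (-1.17). Mxd4 kept its call with factors from abundant genes and Max did not.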
